A study of Mus musculus with 16 samples.

Results

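The mitochondrial respiratory chain is built from subunits encoded by many nuclear genes, and the promoters of these genes were followed here in Promoter Capture Hi-C (P-CHi-C) lists from mouse liver. P-CHi-C cuts crosslinked chromatin with the restriction enzyme HindIII, ligates ends that lie close together and enriches the ligation products of promoter fragments, which are called baits. The members were the bait fragments holding the start of an autosomal protein-coding gene whose symbol begins with Nduf followed by a, b, c, s or v, is Sdha, Sdhb, Sdhc or Sdhd, or begins with Uqcr, Cox4 to Cox8 or Atp5. Of 89 such genes in the GENCODE annotation of mouse build mm9, 83 started on a bait. They lay on 82 of the 18165 baits of the series, because Cox4i1 and Cox4nb shared a fragment and Ndufb8 has separate gene records on adjoining fragments, each with its own identifier. An end on these baits was found in 1582 of the 247177 distinct fragment pairs. The starts of Atp5g3, Atp5l-ps1, Ndufs1, Ndufs4 and Ndufs5 lay on fragments that no list holds, and that of Ndufa10 lay on a listed fragment that was never a bait.

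Livers came from wild-type male C57BL/6 mice labelled as 8 weeks old, an age that the study's methods give for mice that then spent 2 weeks in a cycle of 12 h light and 12 h dark with food at all times. They were taken at 4 zeitgeber times (ZT, hours after lights on), namely ZT0, ZT6, ZT12 and ZT18, with 3 pools of 2 livers each and pool A sequenced on 2 lanes, 16 samples in all. The authors merged the pools of a timepoint, so 1 list of pairs stands for each, no value has a replicate error, and no difference between timepoints was tested. A listed pair, here called a contact, has a score of at least 5 from the caller CHiCAGO, which weighs the reads of a pair against those expected from distance and noise. A pair below that score is absent, which is no measurement of few reads. In the order of the timepoints the lists held 146262, 154775, 151529 and 151347 pairs. Read depth was not analysed here, intervals given below cover counting error only, and contacts of neighbouring fragments are not independent. Whole liver holds several cell types, which a list of contacts cannot tell apart.

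The respiratory chain passes electrons from NADH (complex I) and succinate (complex II) through complex III to oxygen at complex IV, and the ATP synthase uses the resulting proton gradient to make ATP. Most subunits are nuclear encoded, a few are encoded by mitochondrial DNA, and liver depends on the chain for its oxidative metabolism. The factors NRF1, GABP (an ETS factor), YY1 and ERR are known to bind promoters of such genes, and a contact between promoters in a list states proximity above background, not control.

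Many of these genes start next to another gene. Of the 82 baits, 34 (41.5%) also held the start of another protein-coding gene, against 10.4% of the 14654 other autosomal protein-coding baits. The members were picked through their genes, and a bait with several gene starts has more chances to be picked. That raises their share over a background counted per bait, and a share per gene was not computed. Among the 83 genes, 21 (25.3%, 95% Wilson interval 17.2 to 35.6%) had a start of the opposite strand within 1000 bp upstream, against 8.55% of 16372 other genes. The distances ran from 29 bp (Ndufa7 to Rps28, Sdha to Ccdc127) to 363 bp (Ndufa4 to Phf14). Baits of ribosomal protein genes and of proteasome subunit genes, other abundant complexes in every cell, were shared in 31.5% and 26.3% of cases. Both sets were picked through genes in the same way. The contacts of a shared bait belong to the fragment and cannot be divided between its genes. The gene Gabpa, which encodes the DNA-binding subunit of GABP, started on the same bait as Atp5j, a subunit of the peripheral stalk of the ATP synthase.

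The stretches between such paired starts are short enough to print whole. Words of the known factors were searched on both strands from 250 bases before to 50 bases after each start in the mm9 reference, as letters only. The words were GCGCANGCG for NRF1, CCGGAAG for GABP and other ETS factors, AANATGGC for YY1, TCAAGGTCA for ERR and CACGTG for the E-box of the clock factors. The whole stretch up to the start of the opposite neighbour was taken for 13 members in which it was short enough. Of these, 4 had a match and 9 had none (28 to 140 bases long, Ndufa7 and Ndufv3 at the ends of that range). The stretch between Ndufa2 and Ik (starts 108 bp apart) was also short enough but was left out, so the 13 are not all such members. The next stretches are the 4 with a match, chosen for it, read 5′ to 3′ in the direction of the member, with matched letters in capitals. They are Sdha with Ccdc127 (minus strand, chr13:74487729-74487756), Sdhd with Timm8b (minus, chr9:50411955-50412005), Ndufa11 with Vmac (plus, chr17:56857123-56857184) and Ndufb9 with Tatdn1 (plus, chr15:58765286-58765364).
Sdha: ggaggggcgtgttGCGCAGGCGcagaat
Sdhd: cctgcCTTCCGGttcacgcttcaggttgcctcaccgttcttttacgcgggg
Ndufa11: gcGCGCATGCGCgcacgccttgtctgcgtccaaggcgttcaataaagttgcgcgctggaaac
Ndufb9: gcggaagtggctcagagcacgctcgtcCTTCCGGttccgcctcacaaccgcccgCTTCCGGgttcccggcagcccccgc
The Sdha and Ndufa11 stretches matched the NRF1 word, and those of Sdhd and Ndufb9 matched the GABP word, at 2 places in Ndufb9. In the longer window searched, Sdhd also held the NRF1 and ERR words. Of the members without a match in the stretch, Ndufa7 (YY1 word and E-box), Ndufa8 (NRF1 word) and Sdhc (YY1 word) had matches in that window.

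Over all members, the YY1 word stood in 17 of 83 windows (20.5%) against 6.72% of the 16372 other genes on autosomal baits. The NRF1 word stood in 15 (18.1%, others 9.57%) and the GABP word in 16 (19.3%, others 12.5%). Proteasome genes had the YY1 word in 8 of 40 windows, the NRF1 word in 7 and the GABP word in 12, and ribosomal protein genes had them in 11.0%, 9.59% and 30.1%. Any of these 3 words stood in 49.4% of member windows, 57.5% of proteasome and 46.6% of ribosomal protein windows and 4089 of the 16372 others. The E-box stood in 8 (9.64%, others 8.51%) and the ERR word in 1 (others 0.342%). None of these words contains another, though matches of different words may overlap. Nduf genes outside the core subunits and assembly factors were grouped by symbol as accessory subunits of complex I. By complex, the YY1 word was found in 8 of 27 accessory subunits of complex I and in none of the 17 complex IV and 8 complex III genes. The GABP word was found in 4 of 17 complex IV, 3 of 8 complex III and 3 of 14 ATP synthase genes. Median GC content of the windows was 55.7%, against 57.3% for the others. These are matches of letters and no evidence of binding, and the difference in shares was not tested.

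The promoters held a median of 13 contacts over the 4 lists (95% interval from order statistics 10 to 16), from 1 to 79. Other autosomal protein-coding baits had a median of 10, ribosomal protein baits 13 and proteasome baits 14.5. The 6 baits of complex I core subunits, the catalytic part that carries the iron-sulphur clusters and the flavin, had the highest group median, 40.5. The 27 accessory subunit baits had a median of 10, the 4 assembly factor baits 4, complex II 13.5, complex III 10.5, complex IV 12 and the ATP synthase 15. The number of contacts did not follow the length of the bait, with Spearman's rho of -0.0035 over the 82 baits, and had a rho of 0.20 with the number of gene starts within 500 kb. Baits share neighbourhoods and libraries, so both values are descriptions.

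**Figure D1:**
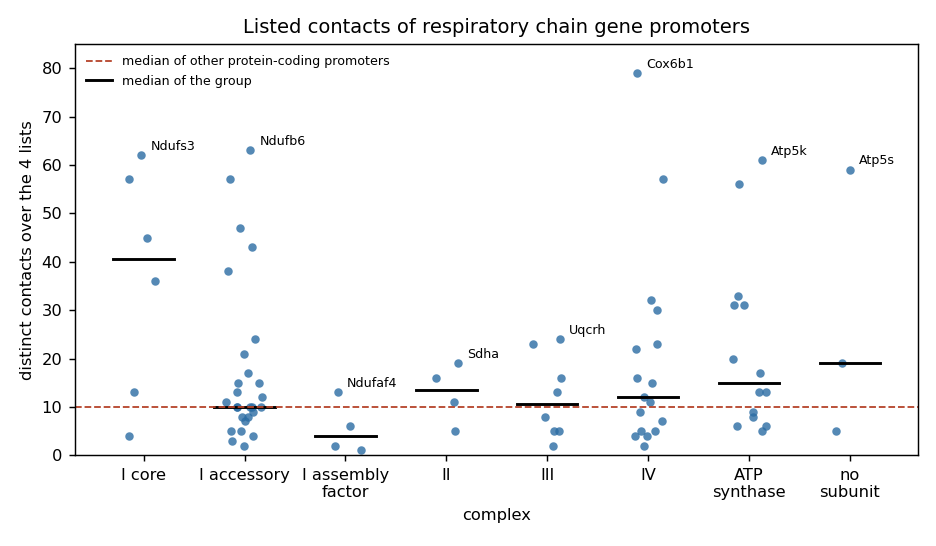
Number of distinct contacts over the 4 lists (vertical axis) for each promoter bait, by complex, with black bars for group medians and a dashed line at 10, the median of other protein-coding promoters. Core subunits of complex I sit highest with a median of 40.5, and the accessory subunits, complex IV and the ATP synthase each span from 5 or fewer to over 50 contacts.

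Among the core subunits, Ndufs3, which shares its bait with Kbtbd4, had 62 contacts, Ndufv1, the NADH-binding subunit, had 57, and Ndufv2 had 45. Ndufs7, which carries the last iron-sulphur cluster before quinone, had 4, so this group of 6 spanned nearly the whole range. Among the accessory subunits, Ndufb6 (63), Ndufb9 (57) and Ndufa2 (47) led. The assembly factors, which help build complex I but are not part of it, were Ndufaf4 (13), Ndufaf2 (6), Ndufaf1 (2) and Ndufaf3 (1). In complex II, Sdha, the flavoprotein, had 19 contacts, the membrane anchors Sdhd and Sdhc had 16 and 11, and Sdhb, the iron-sulphur subunit, had 5. In complex III, the hinge protein Uqcrh had 24, Uqcrb 23 and Uqcr10 had 16. Cox6b1, a subunit that joins the monomers of complex IV, had 79 contacts, the most of all members, followed by Cox8b with 57 and Cox6b2 with 32. In the ATP synthase, Atp5k (subunit e) had 61, Atp5e (epsilon) 56 and Atp5d (delta) 33. The baits with 1 or 2 contacts were those of Ndufaf3, Ndufaf1, Ndufa9, Uqcrc2, a core protein of complex III, and Cox7c. The 3 genes that the symbols bring in but that encode no subunit were Atp5s (59), Atp5sl (19) and Cox4nb, whose 5 contacts are those of the bait it shares with Cox4i1.

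Several subunits have a general and a restricted form, 6 pairs in complex IV, with Cox8a in 2 of them. A further pair is Ndufa4 with Ndufa4l2, here grouped by symbol alone with the accessory subunits of complex I. The restricted form had the larger number of contacts in 5 of the 7 pairs. Cox4i1 was listed with 1, 0, 2 and 2 contacts at ZT0, ZT6, ZT12 and ZT18, and Cox4i2, the form known from lung, with 14, 20, 16 and 17. Cox8a, the form of liver, had 5, 4, 5 and 7 contacts and Cox8b, that of heart and muscle, 33, 30, 43 and 41. In these pairs the restricted form was above the general form in every list. Cox6a1 had 5 contacts in all and Cox6a2, of heart and muscle, had 16, Cox7a2 had 9 and Cox7a1 had 12, and Ndufa4 had 5 and Ndufa4l2 had 15. The order was the other way for Cox6b1 (79) and Cox6b2 (32, known from testis) and for Cox8a (7) and Cox8c (4, also known from testis). Within 500 kb of the bait there were 10 gene starts for Cox4i1 and 38 for Cox4i2, and 34 for Cox8a and 49 for Cox8b. They numbered 30 for Cox6a1 and 34 for Cox6a2, 6 for Cox7a2 and 53 for Cox7a1, and 3 for Ndufa4 and 46 for Ndufa4l2. Cox6b1 had 61 and Cox6b2 46, and Cox8c had 14. In each of the 7 pairs the form with more contacts also had more gene starts. The part of gene density in these numbers was not tested, and no RNA level was analysed.

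In complex II, the strongest contact was that of Sdhc, a membrane anchor (bait chr1:173077327-173084354), with the fragment holding the starts of Nr1i3 and Tomm40l, 68.1 kb away. Nr1i3 encodes the constitutive androstane receptor, a sensor of foreign compounds in liver, and Tomm40l a relative of the mitochondrial import channel. From ZT0 to ZT18 the scores were 42.07, 34.94, 26.68 and 49.33, so the pair was in every list and lowest at ZT12. Of the 11 contacts of Sdhc, 10 ended on another bait.

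In the other complexes the highest score of the leading promoters was reached with genes of varied function. Uqcrh was listed with Faah, the enzyme that degrades fatty acid amides, 61.6 kb away, with scores of 33.79, 43.47, 35.63 and 44.93 in the order of the timepoints. Ndufb6 was listed with Aco1, the cytosolic aconitase and iron-regulatory protein, 133 kb away, with 37.6, 26.04, 26.44 and 37.03. Both were strong in every list. Ndufb9 was listed with Sqle, an enzyme of cholesterol synthesis, 384 kb away, with 19.9, 35.28, 22.84 and 27.22. Cox8b was listed with the fragment of Odf3 and Scgb1c1, 57.7 kb away, with 27.51, 35.78, 36.37 and 33.65. Atp5j had its highest score, 44.48 at ZT18, with a bait in an intergenic stretch 97.4 kb away, where the other lists gave 34.76, 30.7 and 26.58. None of these contacts was missing from a list.

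Further leading contacts were weaker. Ndufs3 reached 21.25 with Celf1, an RNA-binding protein, Ndufv1 reached 22.76 with Gstp2, a glutathione transferase, and Cox6b1 reached 23.27 with Dmkn. Ndufa2 was listed with Ankhd1 at 20.12, 22.6 and 7.44 for ZT0, ZT6 and ZT18 and was not listed at ZT12. Sdha was listed with Erap1, a peptidase that trims peptides for antigen presentation, at ZT6 (12.21) and ZT12 (5.3) only. Sdhd was listed with Pts, an enzyme of tetrahydrobiopterin synthesis, in every list with scores between 6.78 and 8.03. Ndufaf4, the member on the study's own list of circadian genes, had 10, 9, 7 and 11 contacts, and its strongest lay in an intron 179.7 kb away with 25.2, 23.86, 21.28 and 15.06.

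Contacts often lay side by side. Runs of at least 5 directly adjoining fragments held 552 of the 1583 contact ends (34.9%), counting the pair of members from both sides, against 36.0% over all baits. There were 62 such runs, on 28 of the promoters. Ndufs3 had the longest, 20 fragments over 71.2 kb, of which 16 were listed at all 4 timepoints. Ndufb6 (bait chr4:40217711-40227041) had a run of 18 fragments, 93.8 to 149 kb away, and another of 19 fragments on the other side, 399.6 to 445 kb away. Atp5o, the subunit that links the catalytic head to the peripheral stalk, was singled out after its values were seen. It had 17 adjoining ends between 336 and 396 kb away, 13 of them listed at all 4 timepoints, with a highest score of 43.02. A run of fragments at one distance can be one region of proximity, so the number of contacts of these promoters is not a number of separate partners.

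**Figure D2:**
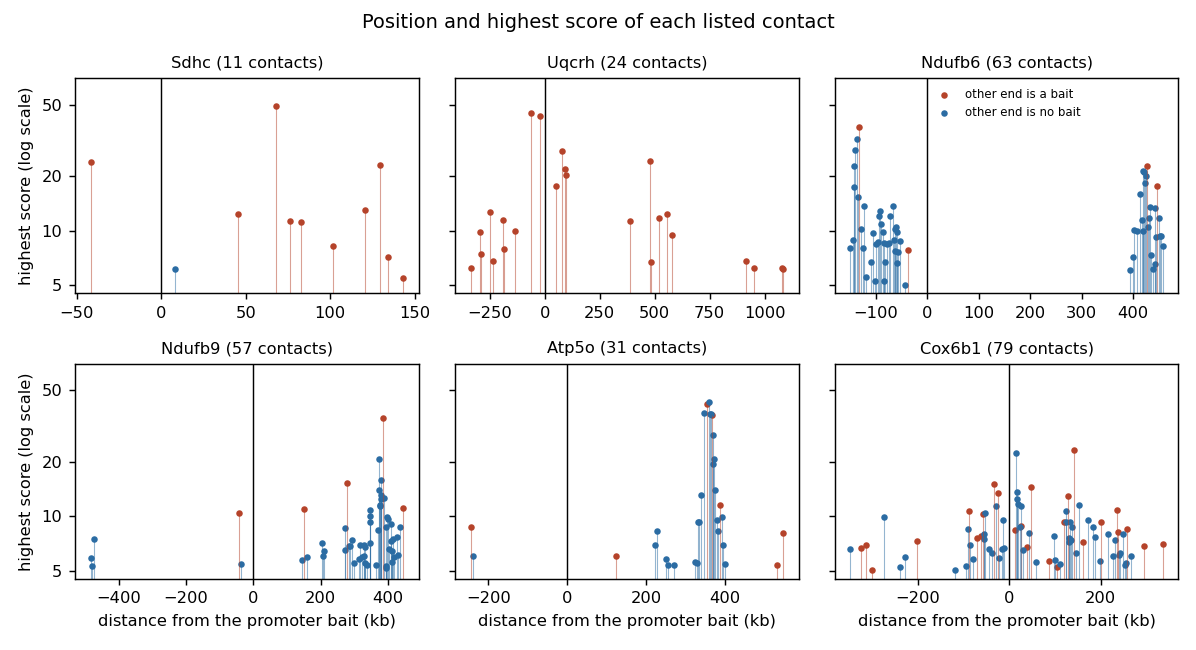
Highest score over the 4 lists (log scale) against the distance of the other end from the promoter bait in kb, for 6 promoters, with other ends that are baits in red and other fragments in blue. Sdhc and Uqcrh contacted nearly only baits, while many contacts of Ndufb6, Ndufb9 and Atp5o formed dense groups, for Atp5o between 336 and 396 kb away.

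The members' contacts spanned a median of 154 kb (145 to 163), against 162 kb over all pairs, and none joined different chromosomes, which only 198 of the 247177 pairs in all did. The longest reached 2689.6 kb from Ndufs6 and was listed at ZT0 and ZT12. Atp5j contacted the start of Rwdd2b over 2603 kb in all 4 lists, with scores of 5.55, 5.56, 12.24 and 6.11. By kind of other end, 493 overlapped an exon without a gene start, 463 held a protein-coding gene start, 341 were intergenic and 286 lay in introns.

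Contacts with other promoters were counted as a share of the distinct pairs of each set. Of the 1582 contacts, 493 (31.2%, Wilson interval 28.9 to 33.5%) ended on another bait. Of all 247177 pairs, 38058 (15.4%) joined baits, as did 17.4% of those of other protein-coding baits. These backgrounds count a pair between their own baits once, though it is a promoter contact of both. Counted from each bait, the series has 285235 contact ends and the members 1583. Both backgrounds are therefore too low to set against the members' share. Ribosomal protein baits had 37.3% and proteasome baits 40.3%. The share was 52.1% (42.2 to 61.8%) for complex III, where all 24 contacts of Uqcrh ended on baits and none of the 16 of Uqcr10 did. It was 37.2% for complex IV, 35.3% for complex II, 27.8% for the ATP synthase, 27.3% for accessory subunits and 54 of 216 contacts for core subunits. Members had a median of 22 gene starts within 500 kb, other protein-coding baits 17, and over the members the number of promoter contacts had a Spearman's rho of 0.45 with that number. Among other protein-coding baits whose number of gene starts lay between the members' quartiles, the share was 19.9%. On baits with a single gene start it was 30.3% for members and 18.5% for the others, and on shared baits 32.5% (29.0 to 36.2%) and 30.0%. These sets of others hold 7574, 13131 and 1523 baits, and pairs within a set again count once. Their shares thus depend on the size of the set and cannot be compared with the members' shares or with each other. The part of gene density and of shared baits was not tested.

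**Figure D3:**
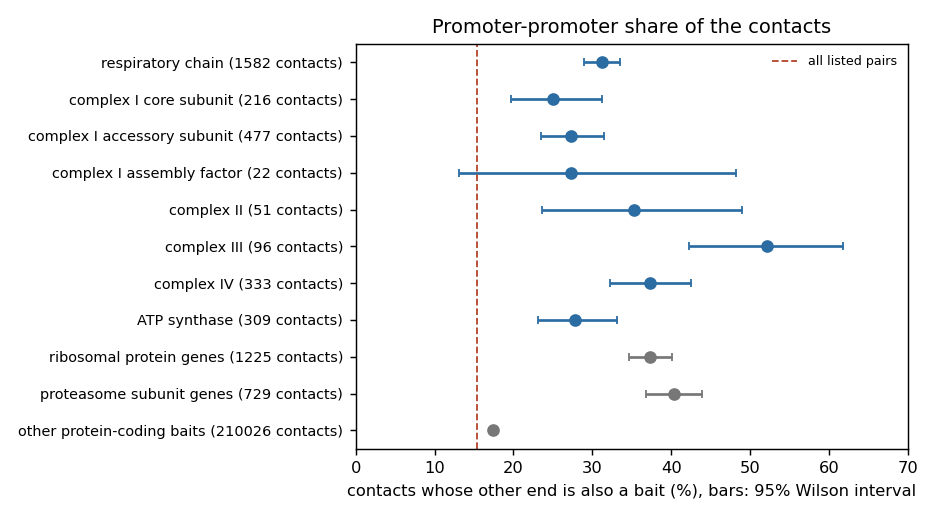
Share of contacts whose other end is also a bait, in percent, with 95% Wilson intervals that cover counting error only, for the members, each complex, and for comparison ribosomal protein, proteasome and other protein-coding promoters. The dashed line is the 15.4% of all listed pairs, which lies below the value of every complex, though within the interval of the assembly factors. The line and the value of other protein-coding promoters count each pair between their baits once. They are therefore too low to compare with the small sets.

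A single contact joined members to each other. Ndufs8 (bait chr19:3911316-3916350) and Ndufv1 (bait chr19:4010861-4017743), both core subunits of complex I, were paired over 100 kb at ZT0 (score 6.82) and ZT18 (5.21) and were not listed as a pair at ZT6 and ZT12. They had 18 other ends in common, between and around both genes. Other neighbouring members shared ends without a listed pair, 3 for Atp5d and Ndufs7, which lie 108 kb apart, and 2 for Cox7a1 and Cox6b1, which lie 438 kb apart. The stretches just before the starts of Ndufs8 and Ndufv1 are shown because they belong to this pair, both on the minus strand, at chr19:3912718-3912867 and chr19:4012807-4012956. Capitals mark the GABP word in Ndufs8 and the E-box in Ndufv1.
Ndufs8: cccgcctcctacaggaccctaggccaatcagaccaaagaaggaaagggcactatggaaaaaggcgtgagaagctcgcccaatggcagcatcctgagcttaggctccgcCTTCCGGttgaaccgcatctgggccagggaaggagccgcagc
Ndufv1: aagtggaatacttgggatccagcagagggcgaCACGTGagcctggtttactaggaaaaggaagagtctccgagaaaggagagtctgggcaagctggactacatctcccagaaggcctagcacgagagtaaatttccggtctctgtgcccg

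Genes around the chain were read from a separate list. Of 10 electron carriers and feeder enzymes, 8 lay on autosomal baits with a median of 16 contacts. Assembly factors outside the symbol rule had 22 of 27 genes on baits with a median of 19, and regulators had 11 of 12 with a median of 12. Contacts between a member and any of these genes were 2, Uqcrh with Atpaf1, an assembly factor of the ATP synthase (not listed at ZT0, then 7.41, 7.43 and 5.76), and Cox6b1 with Sdhaf1, an assembly factor of complex II (5.05 at ZT12 only). Both lay close to 300 kb away, at 289 and 299.6 kb. Among the 19 outside assembly factors with at least 5 contacts, 7 had most contacts at ZT18 and 6 at ZT6, among 7 carriers and feeder enzymes 1 and 3, and among 7 regulators 3 and 1, where all baits had 26.6% at ZT18 and 23.1% at ZT6. None of these lists was tested.

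Across the day the members' contacts in the lists numbered 908, 971, 1025 and 1048 from ZT0 to ZT18. Per 100000 pairs of the list these were 621 (582 to 662), 627, 676 and 692 (652 to 735). The value was highest at ZT18 and lowest at ZT0, where the intervals overlapped, and the lowest list was ZT6 under several alternatives. Contacts listed at all 4 timepoints were 546 of 1582 (34.5%, 32.2 to 36.9%), close to the 32.5% of all pairs. The share was 45.6% (40.2 to 51.2%) for the ATP synthase, 35.6% for core subunits, 33.6% for complex IV, 32.1% for accessory subunits, 22.9% for complex III and 21.6% for complex II. Of the 141 such contacts of the 14 ATP synthase baits, Atp5k held 37, Atp5e 27, Atp5d 16 and Atp5o 15, so a few baits weighed heavily. Ndufb6 had 45 of its 63 contacts in all lists, Atp5k 37 of 61, and Uqcr10 and Ndufc2 none of 16 and 21. Of the 362 contacts that reached a score of 10, 89.2% were in all 4 lists, against 89.7% over all pairs. With another end within 10 kb accepted as the same contact, the share at all 4 rose to 67.5%. No such share was computed over all baits. Numbers of contacts per promoter had Spearman's rho between 0.86 and 0.95 from list to list.

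For each promoter with at least 5 contacts, the list with most contacts was found after division by the total of the list, which 72 of the 82 baits allowed. It was ZT18 for 31 promoters (43.1%, 32.3 to 54.6%), where 26.6% of all baits with at least 5 contacts had theirs. It was ZT0 for 14 (19.4%, all baits 27.7%), ZT6 for 14 (19.4%, all baits 23.1%) and ZT12 for 13 (18.1%, all baits 22.6%). ZT18 led for 9 of 14 complex IV baits, 7 of 14 ATP synthase baits, 11 of 24 accessory subunit baits and 0 of 5 core subunit baits. Proteasome baits had 43.3% at ZT18 and ribosomal protein baits 34.9%, so a larger share at ZT18 was also seen in these. Cox6b1 had 37, 45, 55 and 59 contacts from ZT0 to ZT18 and Atp5e had 40, 35, 40 and 44. Ndufb6, with 51, 56, 55 and 55, also counted under ZT18 once list totals were divided out, so leads could be small. For Cox4i1, Ndufa4l2 and Atp5l, among others, raw numbers at ZT12 and ZT18 were equal and only the list totals decided. The counts by complex include such promoters. With raw numbers and ties left out, ZT18 led for 20 of the 72 (27.8%, all baits 19.4%).

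The labels place each list at its timepoint, but a summary given with the study puts the totals of the lists labelled ZT6, ZT12 and ZT18 under other timepoints. In that order the list with most leads would be that of ZT12. Either way it is the same list, and every value given here by timepoint at ZT6, ZT12 or ZT18 carries the same uncertainty of name.

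**Figure D4:**
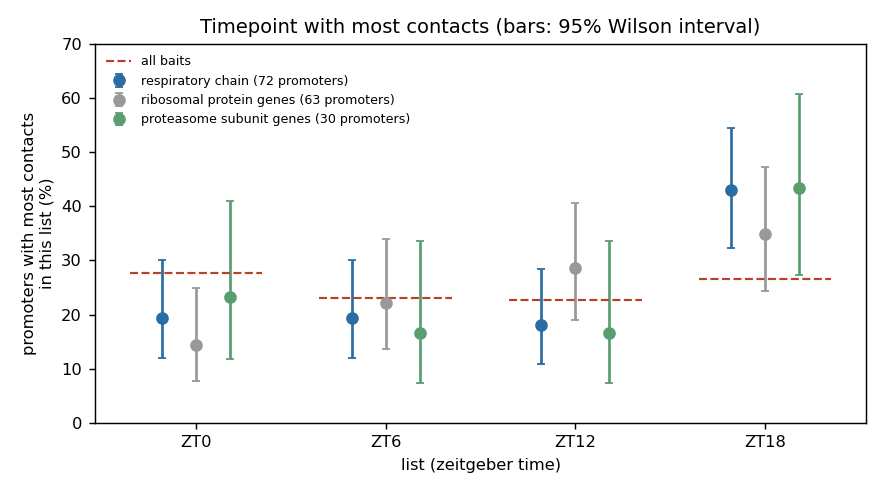
Share of promoters (percent, bars for the 95% Wilson interval) whose number of contacts, divided by the list total, was highest in each list, for respiratory chain, ribosomal protein and proteasome promoters with at least 5 contacts. Dashed lines give all baits, and the respiratory chain value at ZT18, 43.1%, stands above the 26.6% of all baits.

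A 2-fold range was called where the highest scaled number of contacts was at least 2 times the lowest, with 1 contact added to each. Of the 52 members with at least 10 contacts, 11 were called (21.2%), against 15.6% of the 8819 baits of the series with at least 10. The symbol group of complex I accessory subunits, which includes Ndufa4l2, made up 8 of the 11, out of 18 of its baits with at least 10 contacts. The others called were the core subunit Ndufs8, Sdha and Uqcr10, and no complex IV bait of 10 and no ATP synthase bait of 9 was called. The groups were not tested against each other.

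Ndufc2, an accessory subunit of the membrane arm, had the widest range, with 1, 9, 15 and 7 contacts from ZT0 to ZT18, which gives 7.72-fold. Its bait, chr7:104548198-104548555, is 358 bp long, and its highest score was 11.14 with the start of Kctd21, which was not listed at ZT0. Most of its contacts were thus weak, with a median highest score of 5.70. Ndufa3 had 3, 1, 5 and 8 contacts (4.60-fold) and Uqcr10 had 2, 13, 7 and 7 (4.41-fold). Ndufs8 had 25, 6, 17 and 20 (3.93-fold), lowest at ZT6, while its neighbour and contact partner Ndufv1 had 39, 34, 37 and 30. Ndufa11 had 5, 10, 2 and 5 (3.59-fold). Ndufb8, on its bait with 13 contacts, had 2, 8, 5 and 3, and Sdha had 4, 14, 9 and 9 (each 2.83-fold). The highest list differed between these promoters, ZT12 for Ndufc2, ZT18 for Ndufa3, ZT6 for Uqcr10, Ndufa11, Ndufb8 and Sdha, and ZT0 for Ndufs8. In the order of the study's summary, Ndufc2 would be highest at ZT6, Ndufa3 at ZT12 and the 4 promoters of ZT6 at ZT18. The highest score among the contacts of the 11 was 15.29 (Ndufab1), and with 5 contacts added in place of 1 the call held for 5 members (all baits 3.45%).

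**Figure D5:**
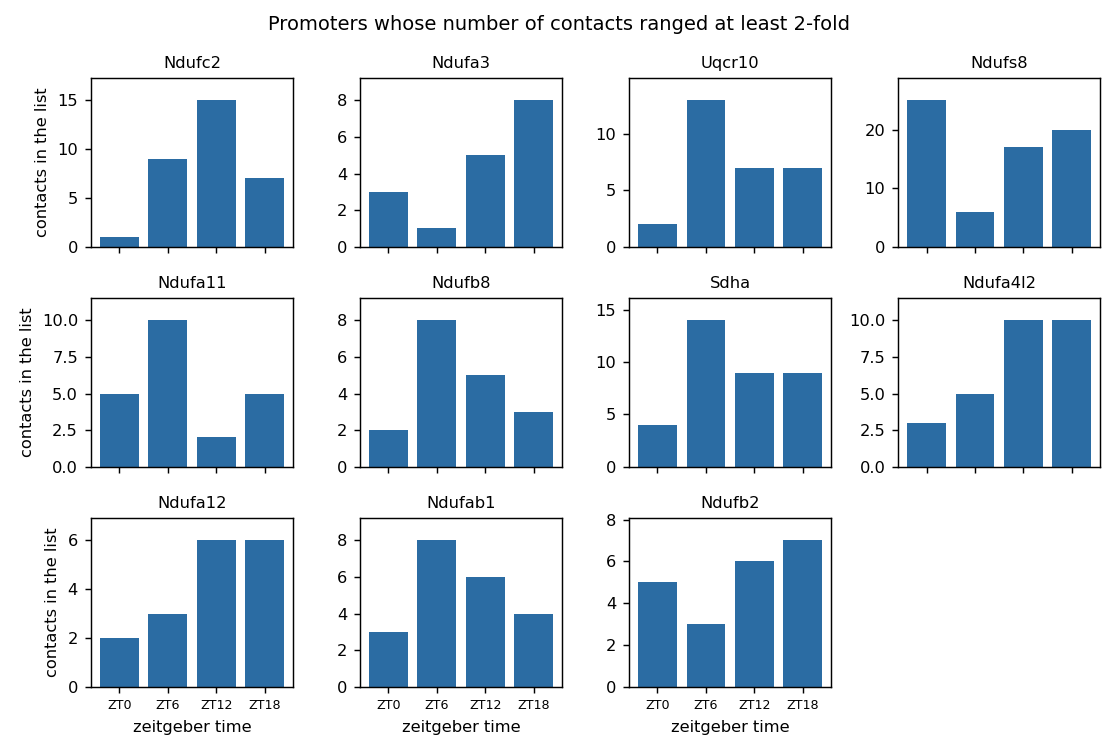
Number of contacts in each list (bars, from 0) for the 11 promoters called for a 2-fold range, 1 panel each with its own vertical scale, and 1 list per timepoint without replicates. Ndufc2 runs from 1 to 15 contacts, and the panels peak at different timepoints.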

How the data were processed

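Promoter Capture Hi-C was done on livers of 16 samples at 4 timepoints. The authors mapped reads to mm9 with HiCUP, pooled all libraries of each timepoint, and ran CHiCAGO on them (versions not given in the sources used here). What they deposited is a score for every fragment pair of a list, with a minimum of 5. Score and depth are linked, so a deeper library passes more pairs. Read counts per pool were not analysed here, and the precision is limited by 1 list per timepoint.

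Pairs were taken without direction, so a contact counted for either end. Fragments that stood in the bait column of at least 1 list were taken as baits. Gene starts came from GENCODE vM1, and on the mm9 reference all 82 member baits were bounded by HindIII sites without a further site inside. Shares have 95% Wilson intervals and medians have order-statistic intervals. The lists were read with python 3.11.15, pandas 2.3.3, numpy 2.4.6 and scipy 1.17.1, and the figures drawn with matplotlib 3.10.9. The counting was tested on simulated data. No test was run over timepoints. The members, gene lists, measures and alternatives were chosen with earlier results of these data known. Named genes were, per group, the 3 promoters with most contacts, that with the highest score, baits with 1 or 2 contacts, members of pairs and isoform pairs, those with the widest called ranges (up to 6) and the circadian member, and the gene at the other end of their strongest contact. Results of 1 member by name are not reported here, though it is in all counts. Atp5o, the genes in pathway contacts, divergent partners, the longest contacts and further called promoters were named after their values were seen. Alternatives were other score minimums, member choices, gene starts, list sizes, tolerances, distances, bait definitions, scalings and timepoint orders.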

Additional observations from a re-analysis of the deposited data

How the results depend on the processing

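No paired analysis was possible because 1 merged list stands for all pools of a timepoint, and for the same reason no replicate was left out in turn. The score minimum sets the numbers of contacts, and read depth, which was not analysed here, limits what the lists hold. Of 84 values under an alternative, 51 stayed within the interval of the reported value, or within 1.5 times it for counts, and 33 moved. None of the 5 values moved with equally many top-scoring pairs from each list, nor the 6 with the start of any protein-coding transcript, which gave the same baits. The gap between fragment ends and baits of the same timepoint also moved nothing.

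At a score of at least 7 the median number of contacts was 5 and no pair joined members (0). At a score of at least 10 the median was 2 and the pairs 0. The contacts per 100000 pairs were 677, 650.2, 677 and 734 from ZT0 to ZT18. The distance was 144 kb and the promoter-promoter share 42.3%, and neither was computed over all pairs at that score. Leads from ZT0 to ZT18 were then 3, 4, 4 and 14 of 25 promoters (56.0% at ZT18, all baits 27.8%), and 2 promoters of 15 had a 2-fold range (13.3%, all baits 14.2%, so no longer above them).

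Without assembly factors, restricted isoforms and genes that encode no subunit (68 baits), contacts per 100000 were 514, 511, 556 and 569.6 from ZT0 to ZT18, and 9 promoters led at ZT6. On the 48 baits with a single gene start they were 378, 362, 412 and 426, and from ZT6 to ZT18 leads were 7, 5 and 18 of 40. These are smaller sets by construction. ZT6 in place of ZT0 was lowest in both, at a score of 10 and, within rounding, at a score of 7 (641 in both lists).

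With another end within 10 kb accepted, the share at all 4 timepoints was 67.5%, computed for the members only. Raw numbers gave 6 leads at ZT0 and 20 at ZT18. In the timepoint order of the study's summary, contacts per 100000 were 676 at ZT6 and 627 at ZT18, and leads were 31 at ZT12 and 14 at ZT18. With 5 contacts added, 5 promoters had a 2-fold range. Chosen after seeing the data, a minimum of 10 contacts gave 9 leads at ZT0 (21 of 52 at ZT18), and leaving out promoters within 1 Mb of another member moved no lead count (27 of 60 at ZT18).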
